A study of Mus musculus with 16 samples.

Results

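The type I interferon response genes are the transcripts that a cell makes when interferon alpha or beta binds the receptor formed by *Ifnar1* and *Ifnar2*. The kinases *Jak1* and *Tyk2* then activate *Stat2*, which acts with *Irf9* in a complex that binds the interferon-stimulated response element in the promoters of these genes. Their products detect viral RNA, block the entry, translation and replication of viruses, attach the ubiquitin-like protein *Isg15* to other proteins and feed back on the pathway itself. In tumors, type I interferon is a signal through which dendritic cells prime CD8+ T cells, and interferon gamma from T and NK cells can raise many of the same transcripts. The module held 38 genes taken from the canonical response, out of 24495 gene symbols in the count tables, and all 38 had at least 1 row.

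The study compared C57BL/6 mice with *Aire* (*Aire*+/+) and without it (*Aire*-/-). *Aire* is the thymic regulator that drives the display of tissue antigens and thereby central tolerance, and its loss leaves self-reactive T cells that may meet tumor antigens. Mice carried MC38 tumors, a mouse colon adenocarcinoma line, and received an antibody against the inhibitory receptor PD-1 (anti-PD1) or an isotype control antibody. At day 19 cells of tumor and spleen were sorted as CD45+ leukocytes or as CD8+ cells and sequenced with droplet kits. The study describes a kit for the 3′ and a kit for the 5′ ends of transcripts. It gives paired T cell receptor sequences for cells of the CD8+ sort. Which kit made each library was not settled here, so the sorts may differ in it. Cells of several mice were pooled, so that each of the 4 conditions gave 1 library per tissue and sort, 16 libraries in all. Values of the 4 conditions are given throughout in one order, first *Aire*+/+ with isotype and then with anti-PD1, followed by *Aire*-/- in the same way. Levels are in counts of unique molecular identifiers (UMIs) per 1000000 UMIs of the cells concerned, written CPM. The filter kept 2930, 2208, 1856 and 2075 cells in the tumor CD45+ sort, 2684, 2221, 1858 and 2212 in the tumor CD8+ sort, 2095, 2088, 2023 and 2393 in the spleen CD45+ sort and 2898, 2944, 2339 and 2629 in the spleen CD8+ sort. Total UMIs were 38930018, 28760725, 24639380 and 23282801 in the tumor CD45+ sort and 35163283, 27052446, 22414026 and 23271163 in the tumor CD8+ sort. In spleen the totals were 12131829, 10927395, 11179230 and 12618100 in the CD45+ sort and 20126142, 19167791, 15590033 and 16279428 in the CD8+ sort. The median cell held 8883 to 12251.5 UMIs in the tumor libraries and 4413.5 to 6405 in the spleen libraries. With 1 library per condition no condition had a replicate, so ratios between 2 conditions carry intervals that cover counting error only and no test. Genotype and treatment were not fitted together over the 4 libraries of a tissue and sort.

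The members fall into 6 groups by what their products do. *Ddx58* (the sensor RIG-I), *Ifih1* (MDA5) and *Dhx58* bind viral RNA and *Zbp1* binds Z-form nucleic acid. *Irf7* and the complex members *Stat2* and *Irf9* carry the signal onward, while *Usp18* removes *Isg15* from proteins and shuts the receptor down. *Oasl1*, *Oasl2*, *Oas1a*, *Oas2*, *Oas3* and *Eif2ak2* (the kinase PKR) belong to the oligoadenylate synthetase and kinase arm, which degrades RNA or stops translation. The effectors are *Ifit1*, *Ifit2*, *Ifit3*, *Rsad2*, *Cmpk2*, *Mx1*, *Mx2*, *Bst2*, *Isg20*, *Samd9l*, *Ifi44*, *Xaf1* and *Ifi27l2a*. *Isg15*, its ligase *Herc6*, the ubiquitin ligase *Trim30a* and the ADP-ribosyltransferase *Parp14* modify other proteins. *Slfn1*, *Slfn5*, *Slfn8*, *Phf11b*, *Phf11d*, the receptor transporter *Rtp4* and the secreted glycoprotein *Lgals3bp* make up the last group. Several members have close paralogs (*Ifit3* with *Ifit3b*, *Oas1a* with *Oas1g*, *Phf11b* with *Phf11d*, *Slfn8* with *Slfn9*, and the Trim30 family), and reads of transcript ends may not always tell such pairs apart.

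Cell types were gated on UMIs of marker genes. The CD8+ T cell gate took 92.8% to 97.1% of the cells of the tumor CD8+ sort and 95.9% to 97.3% of those of the spleen CD8+ sort. In the tumor CD45+ sort it took 4.23%, 9.28%, 10.8% and 33.8% of cells, while macrophages made up 36.3%, 32.2%, 27.2% and 9.01%, monocytes 30.1%, 26.8%, 28.6% and 19.9% and NK cells 3.21%, 5.21%, 7.44% and 11.3%. B cells were 66.0% to 71.0% of the spleen CD45+ sort. The levels of these markers describe the gated cells but do not test the gates. Tumor CD8+ T cells of the CD8+ sort held 1279 to 1481 CPM of *Cd3e* and tumor NK cells 359 to 464 of *Ncr1*. Macrophages held 2298 to 4055 of *C1qa*, tumor monocytes 7070 to 12781 of *Lyz2* and spleen B cells 3593 to 4017 of *Cd79a*. *Apoe*, a macrophage transcript that can reach lymphocytes as free RNA or in doublets, was at 2.05, 2.98, 3.71 and 4.73 in tumor CD8+ T cells of the CD8+ sort. In the CD45+ sort it was at 1.47, 10.9, 38.001 and 11.2 in tumor CD8+ T cells and 36.8, 1.80, 1.12 and 2.73 in NK cells, against 1625 to 3778 in macrophages. Free RNA of members themselves could not be measured apart from their own expression. *Aire* gave 0, 2, 1 and 0 UMIs in the tumor CD45+ sort, 6, 3, 1 and 0 in the tumor CD8+ sort, 2, 5, 4 and 0 in the spleen CD45+ sort and 0 in each library of the spleen CD8+ sort, too few to check the genotype. Any pair of libraries shared 2 to 18 cell barcodes, at most 0.879% of the smaller library. Tumor B cells (2 to 8 per library) and spleen macrophages (3 to 8) were too few and are given no values.

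Among the 5 gated types the members as a whole were most abundant in the myeloid cells of the tumor. Monocytes and macrophages are the cells that clear debris and sense nucleic acid, and both respond strongly to type I interferon. In tumor monocytes the 38 members together made up 17995, 20016, 22077 and 17074 CPM. Tumor macrophages followed at 12567, 13390.4, 17583 and 14605. Tumor CD8+ T cells of the CD8+ sort were at 4748, 6017, 6053 and 6028 (95% Poisson intervals 4724 to 4772, 5987 to 6047, 6019.8 to 6086 and 5996 to 6060.1) and those of the CD45+ sort at 5571, 7028, 6265 and 6469, below both myeloid types. NK cells were lowest among the tumor types, at 2468, 2999.6, 3524 and 3260.0. In spleen the types compared with tumor all lay below it: monocytes at 4842, 4874, 4607 and 4734, CD8+ T cells at 1648, 1540.2, 1579 and 1519 in the CD8+ sort and 1539, 1777, 1539 and 1407 in the CD45+ sort, and NK cells at 942, 831, 871 and 976. Spleen B cells, without a tumor value, were at 1611, 1786, 1549 and 1379. The *Aire*+/+ isotype library had the lowest sum of the 4 conditions in tumor CD8+ T cells of both sorts, in NK cells and in macrophages, but not in monocytes.

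**Figure D1:**
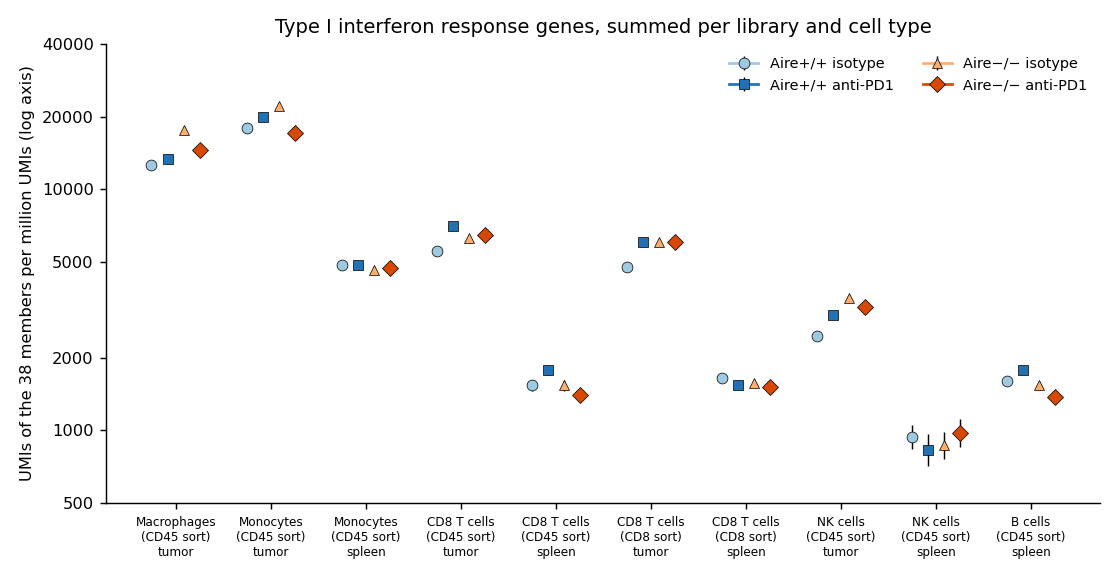
Sum of the 38 members (CPM) in each library by cell type, tissue and sort, with bars for the 95% Poisson interval, which covers counting error only. Tumor monocytes reached 22077 and macrophages 17583 in the *Aire*-/- isotype library, while spleen NK cells lay between 831 and 976.

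A few abundant members carried much of each sum. *Ifi27l2a* encodes a small mitochondrial membrane protein, and it was the most abundant member of CD8+ T cells, B cells and spleen monocytes and first or second, beside *Isg15*, in tumor monocytes and macrophages. Together with *Isg15* and *Bst2*, which tethers budding virions to the cell surface, it made up 51.0%, 50.8%, 47.3% and 42.9% of the member UMIs in tumor CD8+ T cells of the CD8+ sort. Without these 3 genes the sum there was 2328, 2960.0, 3187 and 3439, so the *Aire*+/+ isotype library was still lowest and the *Aire*-/- anti-PD1 library became highest. In monocytes the 3 most abundant members held 44.5%, 43.3%, 42.5% and 42.4%, and in macrophages 46.1%, 45.5%, 46.4% and 48.2%. The rest of the module was broad in myeloid cells: 32 of 38 members reached 100 CPM in all 4 libraries of tumor monocytes and 27 in macrophages. In tumor CD8+ T cells of the CD8+ sort 11 members did, in tumor NK cells 6, in spleen B cells 1 and in spleen NK cells 0.

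CD8+ T cells are the cells that PD-1 blockade acts on, and type I interferon shapes their priming and survival. In the tumor CD8+ sort the effectors led with 2826, 3576, 3397 and 3198 CPM over the group, much of it from *Ifi27l2a* at 1788, 2202, 1881 and 1525. *Bst2* was at 309, 411, 434 and 452, and the exonuclease gene *Isg20* at 226, 276, 306 and 308. *Ifit1*, *Ifit3* and *Rsad2* stand for the inducible antiviral core, *Ifit1* binding foreign RNA caps and *Rsad2* (viperin) making a chain-terminating nucleotide. *Ifit3* was at 134, 182, 224 and 262, *Ifit1* at 77.6, 114, 157 and 201 and *Rsad2* at 37.8, 61.1, 67.6 and 95.2. All 3 were thus lowest in the *Aire*+/+ isotype library and highest in the *Aire*-/- anti-PD1 library, an order that *Ifi27l2a* did not share. *Isg15*, at 323, 444, 551 and 612, had that same order and was the most abundant protein modifier. Among the last group *Lgals3bp* led at 264, 309, 305 and 322. *Irf7*, the factor that amplifies interferon production, was at 189, 268, 261 and 284, and *Zbp1* led the sensors at 144, 179, 208 and 225. The synthetase and kinase arm was the scarcest group, with 114, 141, 154 and 149.5 over 6 genes, of which *Oas3* gave 37.6, 47.0, 53.8 and 50.2.

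Spleen CD8+ T cells held a different ranking of the same genes. The spleen of a mouse is a store of naive CD8+ T cells, and *Slfn1* belongs to a family tied to T cell quiescence. In the spleen CD8+ sort *Ifi27l2a* was again first at 401, 357, 321 and 326, but *Slfn1* was second at 169, 172, 173 and 167, ahead of *Bst2* at 122, 100.1, 128 and 131. *Irf7* was at 71.9, 67.0, 64.6 and 63.8, *Zbp1* at 58.9, 54.6, 63.3 and 52.5 and *Trim30a* at 58.5, 56.5, 59.5 and 54.0, each below its tumor level in all 4 conditions. *Isg15*, so abundant in tumor, was at 57.1, 44.0, 50.6 and 41.7, and *Oas3* at 16.7, 15.99, 17.3 and 20.6. Of the antiviral core, *Ifit1* was at 26.5, 27.6, 24.8 and 20.9, *Ifit3* at 24.0, 21.5, 25.6 and 23.6 and *Rsad2* at 3.66, 3.79, 5.23 and 3.16, and *Isg20* was at 15.9, 12.6, 14.1 and 11.5. In the CD45+ sort the 3 most abundant members of tumor CD8+ T cells were the same as in the CD8+ sort, with *Ifi27l2a* at 2038, 2361, 1919 and 1511, *Isg15* at 492, 609, 687 and 687 and *Bst2* at 331, 475, 432 and 482.

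NK cells kill without prior priming, and type I interferon raises their cytotoxicity. Their leading member in tumor was *Lgals3bp*, at 537, 517, 535 and 555, with nearly the same level in the 4 conditions. *Isg15* followed at 201, 221, 331 and 308 and *Bst2* at 213, 307, 282 and 246, the leading effector. *Irf7* was at 121, 213, 300.2 and 255, *Zbp1* at 88.2, 106, 136 and 123 and *Oas1a*, which makes the activator of RNase L, at 44.5, 51.1, 54.1 and 43.9. *Ifi27l2a*, so abundant in the other types, was at only 56.3, 132, 89.8 and 87.2. In spleen NK cells, of which a library held 47 to 79, *Ddx58* was at 90.4, 47.8, 88.2 and 77.4 and *Lgals3bp* at 90.4, 66.9, 58.8 and 112, with *Isg15* at 21.8, 33.4, 22.1 and 38.7. Their sensors as a group were at 162, 109.9, 173 and 194, nearer to the tumor values of 190.3, 236, 269.5 and 244, than their effectors, which were at 203, 143, 195 and 172 against 765, 997, 1098 and 989.

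Tumor monocytes and macrophages showed the full module. All 38 members reached 10 CPM in each of the 4 libraries of both types. In monocytes *Ifi27l2a* was at 3303, 3514, 3663 and 2924 and *Isg15* at 3193, 3365, 4028 and 3171, so these genes were close to level, and *Irf7* came next at 1521, 1779.9, 1685 and 1142. *Rsad2* was at 983, 1239, 1501 and 999, far above its level in T cells. *Slfn5* led the last group at 539.8, 606, 765 and 772, *Zbp1* the sensors at 483, 494, 639 and 531 and *Oasl2*, a ubiquitin-like relative of the synthetases, its arm at 341, 352, 439 and 355. Macrophages had the same leading genes, *Ifi27l2a* at 2581, 2745, 3273 and 3223, *Isg15* at 2007, 1969, 3308 and 2711 and *Irf7* at 1209, 1374, 1573 and 1108. Their *Bst2* was at 935, 1177, 985 and 788, *Zbp1* at 319, 325, 487 and 429.5 and *Oasl2* at 236, 228, 336 and 275. *Lgals3bp* at 444, 519, 477 and 382 and *Rtp4* at 438, 428, 541 and 439 were the most abundant of the last group in 1 or more libraries. In spleen monocytes *Ifi27l2a* stayed high at 2033, 1575, 1982 and 2117, while *Irf7* was at 222, 308, 210.1 and 189.9, *Slfn5* at 223, 212, 178 and 179, *Zbp1* at 196, 164, 146 and 130.3, *Oasl2* at 136, 136, 103 and 126 and *Isg15* at 111, 158, 107 and 117. The modifier group as a whole was at 354, 433, 340.4 and 358 in spleen monocytes and 3778, 4004, 4849.5 and 3897 in tumor monocytes.

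In spleen B cells the leading member was *Ifi27l2a* at 625, 647, 609.9 and 492. *Samd9l*, a restriction factor for poxviruses, was at 87.0, 87.9, 82.3 and 85.0 and *Irf9* at 76.4, 87.1, 67.7 and 70.5, so a part of the signaling complex ranked among the most abundant members. *Ddx58* was at 63.1, 68.1, 66.6 and 64.3, *Trim30a* at 66.9, 71.6, 69.0 and 65.3, *Phf11b* at 64.1, 73.2, 62.7 and 60.8 and *Eif2ak2* at 27.4, 28.2, 19.9 and 17.3. Tumor held too few B cells for a comparison.

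Sums over cells do not show whether many cells carry a transcript or a few carry much of it. To compare cells of unequal depth, each cell was thinned to 2000 UMIs. In tumor CD8+ T cells of the CD8+ sort 57.6% to 67.0% of cells then held a UMI of *Ifi27l2a*, 41.5% to 50.9% of *Bst2*, 31.1% to 42.3% of *Isg15*, 11.5% to 21.8% of *Ifit1* and 6.43% to 12.7% of *Rsad2*. At the same depth *Apoe*, which T cells should lack, was in 0.522% to 0.959% of these cells (median depth before thinning 10954, 10191, 10030.5 and 8817 UMIs). That share covers macrophage RNA only and sets no background for the members, whose free RNA was not measured. In the spleen CD8+ sort 34.0% to 41.8% of CD8+ T cells held *Ifi27l2a*, 27.4% to 29.4% *Slfn1*, 5.62% to 7.91% *Isg15* and 0.478% to 0.928% *Rsad2* (median depth 6376.5, 6299, 6277 and 5772 UMIs). In the same spleen cells *Apoe* was in 0.0399% to 0.214%, which likewise sets no background for the small share with *Rsad2*. In monocytes *Isg15* was in 79.6% to 86.4% of tumor cells and 9.43% to 16.98% of spleen cells, and *Rsad2* in 44.4% to 53.2% and 3.77% to 5.66%. Spleen B cells, thinned alike, held *Slfn1* in 0.416% to 0.721% of cells and *Isg15* in 2.61% to 4.93%. No background share is given for monocytes or B cells, so low shares there may include free RNA.

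Cells rich in the module were more frequent in tumor than in spleen within each type compared. A cell was counted as rich at 20 or more member UMIs among 2000, which is 1% of its transcripts. In the tumor CD8+ sort 15.5%, 23.2%, 23.5% and 24.2% of CD8+ T cells passed, with exact (Clopper-Pearson) intervals of 14.1% to 16.9%, 21.5% to 25.1%, 21.5% to 25.5% and 22.4% to 26.1%. These intervals treat cells as independent draws and leave out differences between mice and libraries, so they do not test a difference between conditions. The line ran through a continuum, as 14.0% to 16.7% of cells lay within 5 UMIs of it. At 10 UMIs the shares were 38.3%, 47.9%, 46.8% and 45.6% and at 40 UMIs 3.86%, 5.82%, 6.38% and 8.76%, so the *Aire*+/+ isotype library was lowest at each. In tumor CD8+ T cells of the CD45+ sort this did not hold at 40 UMIs, where the shares were 8.87%, 6.34%, 7.5% and 10.98%. In the spleen CD8+ sort the shares at 20 were 0.755%, 0.570%, 0.973% and 0.877%, while spleen monocytes reached 7.14%, 5.66%, 11.3% and 9.52%. Tumor monocytes had 68.1%, 72.3%, 77.0% and 67.5% rich cells, macrophages 53.3%, 58.4%, 72.7% and 54.0%, and NK cells 6.38%, 8.70%, 7.97% and 8.51%. Members differed in how far they gathered in such cells. Among tumor CD8+ T cells of the CD8+ sort, the 10% with the most UMIs of the other members held 58.9% to 68.2% of *Rsad2*, 58.7% to 71.7% of the GTPase gene *Mx2* and 42.1% to 48.7% of *Isg15*. The same cells, ranked for each gene in turn, held 16.3% to 21.1% of *Ifi27l2a*, 18.4% to 20.7% of *Irf9* and 18.4% to 22.0% of *Lgals3bp*. Macrophages showed that split as well, with 51.5% to 64.1% of *Cmpk2*, a mitochondrial nucleotide kinase encoded beside *Rsad2*, against 8.29% to 12.2% of *Irf9*.

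Tumor and spleen differed in nearly the whole module in CD8+ T cells. The comparison asks whether cells in the tumor carry a stronger interferon imprint than cells of the same class in a lymphoid organ of the same mice. The 4 conditions served as replicates, with condition as a term in an edgeR quasi-likelihood fit of library sums. The fit used TMM factors, so its fold changes are not plain ratios of the CPM given. In the CD8+ sort 35 of 38 members were higher in tumor and 1 lower at a BH adjusted p under 0.05 with edgeR, against 37.7% of 11699 genes higher and 39.6% lower. The median member was 1.63 (log2) higher, while the median of all genes was −0.03. *Isg20* was highest, at 4.27 ± 0.14 (log2 ± SE, edgeR adjusted p 1.09e-07, higher in 4 of 4 conditions). *Rsad2* was 3.90 ± 0.20 higher (adjusted p 9.97e-07) and *Isg15* 3.20 ± 0.20 (3.02e-06), each in 4 of 4 conditions by edgeR. The abundant members *Ifi27l2a*, at 2.30 ± 0.09 (edgeR adjusted p 2.15e-07), and *Bst2*, at 1.65 ± 0.10 (2.42e-06), were also higher in 4 of 4. The difference thus reached from the cap-binding and nucleotide-making effectors to the protein modifiers. *Slfn1* went the other way: it was −0.56 ± 0.08 in tumor relative to spleen (edgeR adjusted p 3.18e-04, higher in 0 of 4 conditions). Its relative *Slfn8*, at 0.02 ± 0.10 (adjusted p 0.855), and *Samd9l*, at 0.11 ± 0.07 (0.201), were not called by edgeR. *Samd9l* was called when cells were thinned (0.25, adjusted p 0.0193, range over alternatives 0.0193 to 0.531), and over all alternatives 32 to 36 members were higher and 1 lower.

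CD8+ T cells of the CD45+ sort come from a separate sort of the same tissues. There edgeR called 33 of 35 tested members higher and 1 lower, against 28.5% of 8567 genes higher and 27.7% lower, and *Oas2*, *Ifi44* and *Phf11d* had too few UMIs for the test. The median member was 1.72 higher and the median of all genes −0.04. *Rsad2* was at 57.3, 123, 71.8 and 125 in tumor and 1.09, 2.09, 6.94 and 0 in spleen, and *Isg15* at 39.4, 70.9, 54.5 and 20.3 in spleen. *Rsad2*, with 10 UMIs over the 4 spleen libraries, was 5.16 ± 0.32 higher (edgeR adjusted p 3.18e-12, 4 of 4 conditions), *Isg20* 4.51 ± 0.15 (2.86e-17) and *Isg15* 3.70 ± 0.17 (9.56e-15). *Ifi27l2a* was 2.36 ± 0.09 higher (edgeR adjusted p 3.6e-16) and *Bst2* 1.72 ± 0.11 (6.67e-12), again in 4 of 4. The member lower in tumor was again *Slfn1*, at 162, 148, 129 and 155 in tumor and 151, 194, 142 and 169 in spleen. This call was weak, at −0.23 ± 0.09 (edgeR adjusted p 0.0467, higher in 1 of 4 conditions, with adjusted p 0.0112 to 0.750 over the alternatives). It was lost without the *Aire*+/+ anti-PD1 libraries (−0.14, adjusted p 0.284), without the *Aire*-/- isotype libraries (−0.23, 0.111) and without the *Aire*-/- anti-PD1 libraries (−0.24, 0.0851). *Irf9* was not called, at 0.19 ± 0.11 (adjusted p 0.160). The shares of exhausted, effector and naive cells within the gate were not measured, so state and tissue cannot be told apart.

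NK cells also carried more of the module in tumor. With edgeR 29 of 34 tested members were higher, against 21.8% of 8048 genes higher and 17.3% lower, and the median member was 2.29 higher where the median of all genes was −0.02. *Bst2* was at 37.4, 38.2, 44.1 and 55.9 in spleen, against 213, 307, 282 and 246 in tumor. *Isg15* was 3.63 ± 0.20 higher (edgeR adjusted p 4.19e-12), *Lgals3bp* 3.13 ± 0.15 (4.64e-13) and *Bst2* 2.97 ± 0.18 (1.32e-11), each in 4 of 4 conditions. *Isg20*, at 165, 159, 176 and 175 in tumor, was at 0, 4.78, 3.68 and 0 in spleen. *Rsad2*, *Ifit3* and *Ifi44* had 550, 327 and 261 UMIs in tumor NK cells and 0 in spleen. Against a floor of 3 counts over the 4 spleen libraries they were at least 23.1-fold, 13.8-fold and 10.98-fold higher, and with these bounds the median stayed at 2.29. The members not called included the RNA sensors *Ddx58* at 0.42 (edgeR adjusted p 0.0878) and *Ifih1* at 0.77 (0.0971), while the related sensor *Dhx58* was among those called higher. Also not called were *Samd9l* at 0.45 (0.138), *Irf9* at 0.46 (0.115) and *Slfn8* at 0.10. *Mx2*, *Oas2*, *Phf11d* and *Slfn1* had too few UMIs for the test. *Samd9l* was called without the *Aire*+/+ isotype libraries (0.87, adjusted p 0.0138, range over alternatives 0.0138 to 0.495) and *Irf9* without the *Aire*+/+ anti-PD1 libraries (0.72, 0.0422, range 0.0422 to 0.363). Spleen NK cells gave 1034594 UMIs against 8196201 in tumor, and with cells thinned to equal depth 19 members were called higher, the lowest count among alternatives that reached up to 31.

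In monocytes the members other than *Irf9* were higher in tumor in 4 of 4 conditions. With edgeR 38 of 38 were called higher, against 27.3% of 9657 genes higher and 23.0% lower, with a median of 2.19 where that of all genes was −0.02, and 37 or 38 were called over the alternatives. *Rsad2* was at 983, 1239, 1501 and 999 in tumor and 20.5, 40.1, 21.1 and 19.9 in spleen, 5.94 ± 0.16 higher (edgeR adjusted p 7.15e-15, 4 of 4 conditions). *Isg15* was 5.23 ± 0.13 higher (adjusted p 2.76e-15) and *Irf7* 3.15 ± 0.11 (8.76e-14), by edgeR in 4 of 4 conditions. These inducible genes therefore stood farther apart between the tissues than did *Ifi27l2a*, at 1.23 ± 0.10 (edgeR adjusted p 1.14e-08), and *Oas1a*, at 1.21 ± 0.12 (1.63e-07). *Irf9* was at 76.4, 92.4, 89.9 and 89.8 in tumor and 77.7, 99.7, 113 and 81.7 in spleen. Its fitted 0.32 ± 0.12 (edgeR adjusted p 0.0349) stood beside a higher value in 1 of 4 conditions by CPM, so its direction is not settled. The fit used TMM factors and the CPM did not. That call was lost without the *Aire*+/+ isotype (0.29, adjusted p 0.117), *Aire*+/+ anti-PD1 (0.31, 0.113) or *Aire*-/- anti-PD1 libraries (0.22, 0.127), with DESeq2 (0.33, 0.0966), with no condition term (0.30, 0.0800) and with a stricter gate (0.26, 0.0764), with adjusted p 0.0202 to 0.127 over the alternatives. Tumor monocytes and spleen monocytes may differ in maturation and in the dissociation of their tissue, and the share of either in these differences was not tested.

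**Figure D2:**
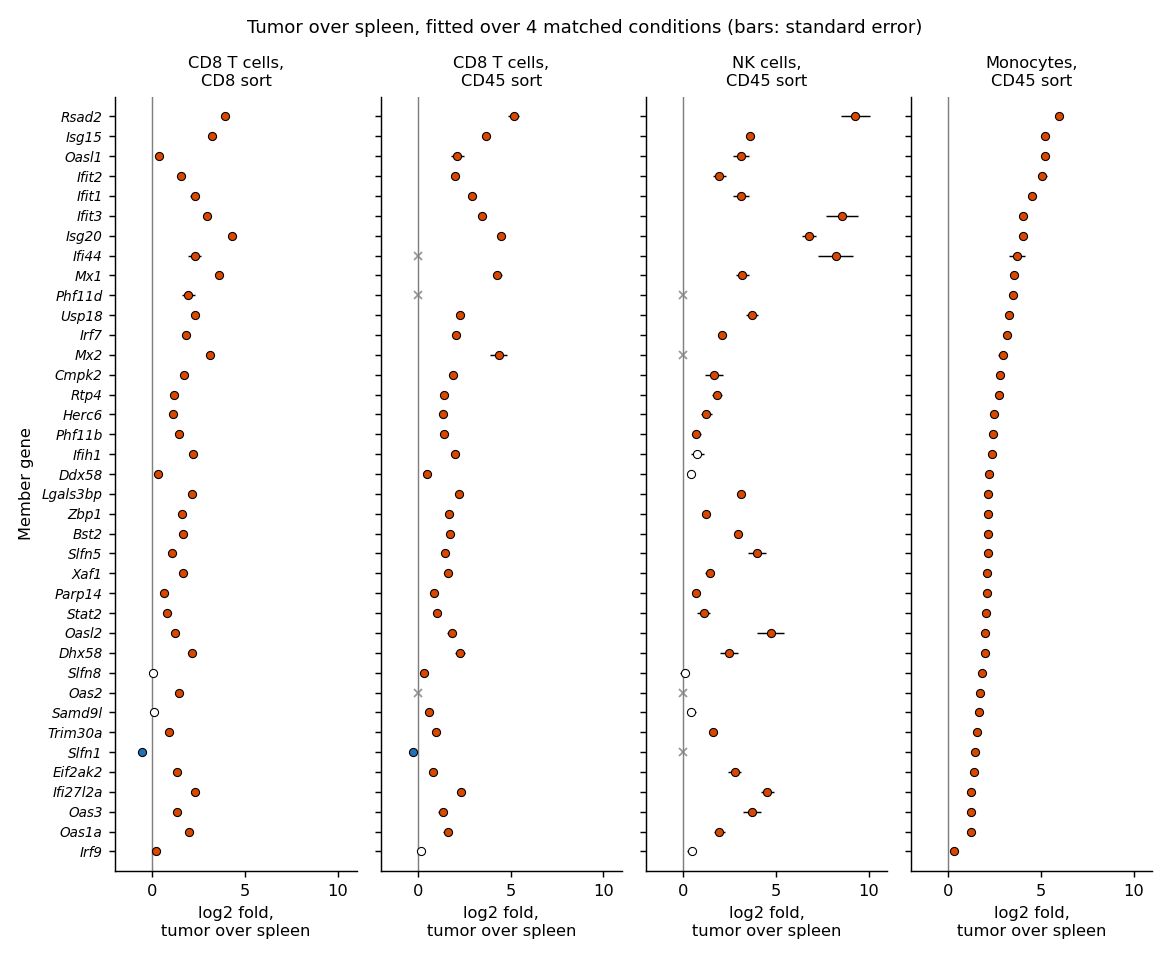
Log2 fold change (tumor over spleen) of each of the 38 members in the 4 tested cell classes, orange where higher, blue where lower, white where not called by edgeR, and a gray cross at 0 where not tested. *Slfn1* lies at −0.56 in CD8+ T cells of the CD8+ sort, while *Rsad2* in monocytes reaches 5.94.

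Within the tumor, the next comparisons ask how loss of *Aire* and blockade of PD-1 relate to the module in each cell type. *Aire* loss adds self-reactive T cells and PD-1 blockade releases T cells from inhibition, and interferon from activated cells may reach all types in the tumor. Genotype was compared under isotype and under anti-PD1, and treatment within each genotype. In every pair the log2 ratio is that of *Aire*-/- to *Aire*+/+ or of anti-PD1 to isotype. The genotype ratio under isotype and the treatment ratio in *Aire*+/+ share the *Aire*+/+ isotype library as denominator, and the other pairs likewise share libraries, so they are not independent. Each gene's pair of values is given denominator first, followed by the log2 ratio and its 95% interval, and the genes named as highest or lowest are those among members with at least 100 UMIs over the pair.

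In tumor CD8+ T cells of the CD8+ sort most members were higher in *Aire*-/- than in *Aire*+/+ under isotype. The median member ratio was 0.46 (log2), against −0.03 for all genes. Past 1.5-fold, 9 members were higher and 0 lower, where 3.19% of 11429 genes were higher and 4.86% lower. The highest ratios were those of a cap-binding and a nucleotide-making effector, *Ifit1*, at 77.6 and 157 (1.01, 0.94 to 1.09) and *Rsad2*, at 37.8 and 67.6 (0.84, 0.73 to 0.95). At the other end were *Ifi44*, at 3.20 and 2.57 (−0.32, −0.82 to 0.17) and *Ifi27l2a*, at 1788 and 1881 (0.07, 0.05 to 0.09), the latter the most abundant member. Under anti-PD1 the genotypes were closer, with a median of 0.15 against −0.01 for all genes (0.22 in thinned cells). Past 1.5-fold were 3 members higher and 0 lower, where 4.68% of 11323 genes were higher and 3.05% lower. The highest were *Ifit1*, at 114 and 201 (0.82, 0.76 to 0.89) and *Cmpk2*, at 26.4 and 44.5 (0.75, 0.61 to 0.89), and the lowest *Ifi27l2a*, at 2202 and 1525 (−0.53, −0.55 to −0.51) and *Oasl1*, at 4.98 and 4.10 (−0.28, −0.68 to 0.12). *Ifi27l2a* and *Ifit1* thus stood on opposite sides of 0 under anti-PD1.

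Treatment ratios come from the same 4 libraries, so for each gene the difference between them in the 2 genotypes equals that between the genotype ratios under the 2 treatments and is no second finding. In *Aire*+/+ the median ratio of anti-PD1 to isotype was 0.35, against 0.01 for all genes. Past 1.5-fold were 3 members higher and 0 lower, where 2.67% of 11484 genes were higher and 3.68% lower. The dynamin-like GTPase gene *Mx1*, at 42.8 and 74.5 (0.80, 0.70 to 0.90), and *Rsad2*, at 37.8 and 61.1 (0.69, 0.58 to 0.80), led. The lowest were *Ifi44*, at 3.20 and 2.27 (−0.50, −0.99 to −0.02) and *Oasl2*, at 15.96 and 14.9 (−0.10, −0.29 to 0.10). In *Aire*-/- the median was 0.07 against 0.03 (0.04 under TMM scaling), and 0 members passed 1.5-fold in either direction, where 4.08% of 11252 genes were higher and 1.95% lower. The highest were *Rsad2*, at 67.6 and 95.2 (0.50, 0.40 to 0.59) and *Cmpk2*, at 34.4 and 44.5 (0.37, 0.23 to 0.51), and the lowest *Oasl1*, at 5.42 and 4.10 (−0.40, −0.81 to 0.01) and *Oas2*, at 3.14 and 2.50 (−0.33, −0.87 to 0.21), synthetases with few UMIs. All 6 role groups had positive medians under isotype in the genotype comparison, from 0.32 for the sensors to 0.50 for the Schlafen and PHF11 group. Thus the difference under isotype was spread over the groups, and whether the genotype ratio differed between treatments could not be tested.

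CD8+ T cells of the CD45+ sort, 124 to 701 per library, gave less certain values. Their *Apoe* level, given above, was also higher in *Aire*-/- than in *Aire*+/+ under isotype, and the part of macrophage RNA in the ratios was not tested. Their median member ratio was 0.29 for genotype under isotype (37 members, all genes 0.05), and 0.02 under anti-PD1 (38 members, all genes 0.04). The latter was 0.20 in thinned cells, 0.19 with means of per-cell values and 0.11 with a looser gate, and −0.01 under TMM scaling or without ribosomal and mitochondrial UMIs. For anti-PD1 it was 0.37 in *Aire*+/+ (35 members, all genes 0.05) and 0.22 in *Aire*-/- (37 members, all genes 0.04), but with a looser gate 0.08 and 0.06. Without cells above 3 times the median UMIs the *Aire*-/- value was 0.12. Under isotype the sensor *Ifih1* and the synthetase *Oas3* had the highest genotype ratios, with *Ifih1*, at 25.0 and 43.9 (0.81, 0.24 to 1.42) and *Oas3*, at 30.9 and 49.8 (0.69, 0.17 to 1.24), and the lowest were *Samd9l*, at 65.4 and 51.9 (−0.33, −0.74 to 0.08) and *Slfn1*, at 162 and 129 (−0.32, −0.58 to −0.07). The *Ifih1* value was unsteady, as it was −0.05 in thinned cells. Under anti-PD1 the highest were *Ifit1*, at 167 and 243 (0.55, 0.38 to 0.72) and *Irf9*, at 65.5 and 91.2 (0.48, 0.21 to 0.75), and the lowest *Oasl1*, at 27.5 and 7.78 (−1.82, −2.38 to −1.27) and *Ifi27l2a*, at 2361 and 1511 (−0.64, −0.69 to −0.60). *Ifi27l2a* was therefore lower and *Ifit1* higher in *Aire*-/- under anti-PD1 in both sorts. Anti-PD1 in *Aire*+/+ went with *Rsad2*, at 57.3 and 123 (1.11, 0.74 to 1.49) and *Oas3*, at 30.9 and 63.6 (1.04, 0.53 to 1.58) at the top and *Stat2*, at 38.2 and 34.6 (−0.14, −0.67 to 0.40) and *Slfn1*, at 162 and 148 (−0.13, −0.38 to 0.12) at the bottom. In *Aire*-/- the top was *Cmpk2*, at 25.3 and 48.1 (0.92, 0.53 to 1.34) and *Rsad2*, at 71.8 and 125 (0.80, 0.56 to 1.04), the gene pair that lies side by side on chromosome 12, and the bottom *Ifi27l2a*, at 1919 and 1511 (−0.35, −0.39 to −0.29) and *Usp18*, at 109 and 87.8 (−0.31, −0.52 to −0.09).

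In tumor NK cells many members were higher in *Aire*-/- under isotype. The median was 0.67 against −0.01 for all genes, and 22 of 36 members were past 1.5-fold higher and 0 lower, where 10.7% of 7967 genes were higher and 9.24% lower. The *Aire*+/+ isotype library held 94 NK cells, and the median was 0.33 in thinned cells and 0.35 with means of per-cell values. RNA-binding and microtubule-associated effectors led, with *Ifit1*, at 15.3 and 61.9 (2.02, 1.35 to 2.75) and *Ifi44*, at 16.7 and 46.3 (1.47, 0.80 to 2.19). The lowest ratios belonged to *Lgals3bp*, at 537 and 535 (−0.01, −0.14 to 0.13), which was 0.01 under TMM scaling, and *Isg20*, at 165 and 176 (0.10, −0.15 to 0.35). The leading member of NK cells thus had the lowest ratio of those with 100 UMIs. Under anti-PD1 the median was 0.13 against 0.00 for all genes, and from −0.07 to 0.15 over the alternatives. Past 1.5-fold were 5 of 36 higher and 2 lower, where 7.98% of 8862 genes were higher and 7.37% lower. The highest were *Ifit2*, at 25.3 and 55.4 (1.13, 0.64 to 1.65) and *Rsad2*, at 36.7 and 73.6 (1.004, 0.59 to 1.43), the lowest *Ifi27l2a*, at 132 and 87.2 (−0.59, −0.85 to −0.33) and *Ifi44*, at 36.7 and 28.2 (−0.38, −0.86 to 0.11). For anti-PD1 in *Aire*+/+ the median was 0.26 against 0.03, and 0.15 in thinned cells and 0.46 without cells above 3 times the median UMIs. There 10 of 35 were past 1.5-fold higher and 0 lower, where 10.5% of 7949 genes were higher and 5.91% lower, led by *Ifi27l2a*, at 56.3 and 132 (1.23, 0.85 to 1.61) and *Irf9*, at 31.3 and 55.3 (0.82, 0.29 to 1.37), with *Rsad2*, at 50.01 and 36.7 (−0.45, −0.96 to 0.07) and *Mx1*, at 57.7 and 44.5 (−0.37, −0.85 to 0.10) lowest. The *Ifi27l2a* ratio rested on the gate, being −0.15 with a looser one, and the *Irf9* ratio was −0.05 in thinned cells. In *Aire*-/- the median was −0.14 against 0.03, and −0.05 in thinned cells, −0.23 without those large cells and −0.30 with a looser gate. There 1 of 36 was past 1.5-fold higher and 2 lower, where 8.57% of 8853 genes were higher and 5.31% lower. Here *Ifit2*, at 32.4 and 55.4 (0.78, 0.34 to 1.23) and *Irf9*, at 53.6 and 63.3 (0.24, −0.11 to 0.60) were highest, *Ifi44*, at 46.3 and 28.2 (−0.72, −1.16 to −0.27) and *Oasl2*, at 31.3 and 22.7 (−0.46, −0.98 to 0.07) lowest.

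In tumor monocytes the member median lay above that of all genes under isotype and below it under anti-PD1. Monocytes enter the tumor from blood and turn into macrophages. How long the gated cells had been in the tumor was not measured. Under isotype the median was 0.36 against −0.08 for all genes, and 5 of 38 members were past 1.5-fold higher and 0 lower, where 5.16% of 9958 genes were higher and 9.75% lower. The ubiquitin ligase gene led with *Trim30a*, at 223 and 349.6 (0.65, 0.57 to 0.73), beside *Cmpk2*, at 198 and 309.8 (0.65, 0.56 to 0.74), and the lowest were *Slfn1*, at 415 and 369 (−0.17, −0.24 to −0.10) and *Bst2*, at 707 and 682 (−0.05, −0.11 to 0.00), of which *Bst2* was 0.01 under TMM scaling. Under anti-PD1 the median was −0.23 against −0.08, and 0 members were past 1.5-fold higher and 4 lower, where 6.7% of 9491 genes were higher and 13.5% lower. The highest were *Slfn5*, at 606 and 772 (0.35, 0.28 to 0.41) and *Trim30a*, at 253 and 315 (0.32, 0.21 to 0.42), and the lowest *Bst2*, at 862 and 469.7 (−0.88, −0.95 to −0.80) and *Irf7*, at 1779.9 and 1142 (−0.64, −0.69 to −0.59). So the virion tether and the factor that amplifies the response were lower in *Aire*-/- under anti-PD1, while *Trim30a* was higher under both treatments. Anti-PD1 in *Aire*+/+ gave a median of 0.19 against −0.02, with 0 members past 1.5-fold in either direction, where 3.93% of 10038 genes were higher and 4.31% lower. At the top were *Oasl1*, at 239 and 311 (0.38, 0.30 to 0.47), a brake on *Irf7* translation, and *Phf11d*, at 226 and 292 (0.37, 0.28 to 0.46), a nuclear PHD-finger gene. The lowest were *Dhx58*, at 143 and 143 (0.01, −0.11 to 0.12), which was −0.00 without ribosomal genes in the total, and *Zbp1*, at 483 and 494 (0.03, −0.03 to 0.10). In *Aire*-/- the median was −0.33 against −0.03, with 0 members past 1.5-fold higher and 4 lower, where 4.69% of 9317 genes were higher and 7.08% lower. The lowest were *Cmpk2*, at 309.8 and 179 (−0.80, −0.92 to −0.68) and *Ifit3*, at 789 and 486 (−0.70, −0.77 to −0.63), and the highest *Oas2*, at 61.5 and 62.9 (0.03, −0.19 to 0.26) and *Slfn5*, at 765 and 772 (0.01, −0.05 to 0.08). By role the effectors were lowest there (median −0.46), followed by the transcription factor group (−0.41).

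Tumor macrophages paralleled the monocytes in the isotype pair. The median genotype ratio under isotype was 0.55 against −0.04 for all genes, and 16 of 38 members were past 1.5-fold higher and 0 lower, where 6.12% of 10754 genes were higher and 6.61% lower. The highest were *Ifi44*, at 18.6 and 37.4 (1.01, 0.77 to 1.25) and *Cmpk2*, at 74.9 and 141 (0.91, 0.79 to 1.03), and the lowest *Slfn1*, at 277 and 284 (0.03, −0.04 to 0.11), which was −0.02 without ribosomal genes in the total, and *Bst2*, at 935 and 985 (0.07, 0.04 to 0.11). Effectors (median 0.69) and protein modifiers (0.63) differed most by role. Under anti-PD1 the median was 0.16 against −0.11, and −0.01 in thinned cells, 0.08 with a stricter gate and 0.09 with means of per-cell values. Past 1.5-fold was 1 member higher and 0 lower, where 8.19% of 10122 genes were higher and 16.6% lower. *Samd9l* and *Oas3*, which act on translation and RNA, led with *Samd9l*, at 57.3 and 86.9 (0.60, 0.36 to 0.83) and *Oas3*, at 80.2 and 119 (0.57, 0.36 to 0.77), and surface or secreted products were lowest, with *Bst2*, at 1177 and 788 (−0.58, −0.65 to −0.51) and *Lgals3bp*, at 519 and 382 (−0.44, −0.55 to −0.34). Anti-PD1 in *Aire*+/+ gave a median of 0.09 against −0.01, with 0 members past 1.5-fold in either direction, where 3.26% of 10859 genes were higher and 3.49% lower. The ratios ran from *Rsad2*, at 428 and 387 (−0.14, −0.20 to −0.09) and *Slfn1*, at 277 and 255 (−0.12, −0.19 to −0.05) to *Bst2*, at 935 and 1177 (0.33, 0.30 to 0.37) and *Ifi44*, at 18.6 and 26.5 (0.51, 0.28 to 0.75). In thinned cells the *Rsad2* ratio was 0.11. In *Aire*-/- the median was −0.30 against −0.09, with 0 members past 1.5-fold higher and 6 lower, where 5.14% of 9733 genes were higher and 11.6% lower. Here *Cmpk2*, at 141 and 67.8 (−1.05, −1.31 to −0.81) and *Mx1*, at 215 and 138 (−0.64, −0.82 to −0.46) were lowest and *Eif2ak2*, at 80.8 and 93.5 (0.21, −0.02 to 0.44) and *Slfn5*, at 345 and 374 (0.12, 0.00 to 0.23) highest. Both myeloid types thus had lower levels of most members with anti-PD1 in *Aire*-/-, each in 1 pair of libraries, while the macrophage share of these libraries went from 27.2% to 9.01%.

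**Figure D3:**
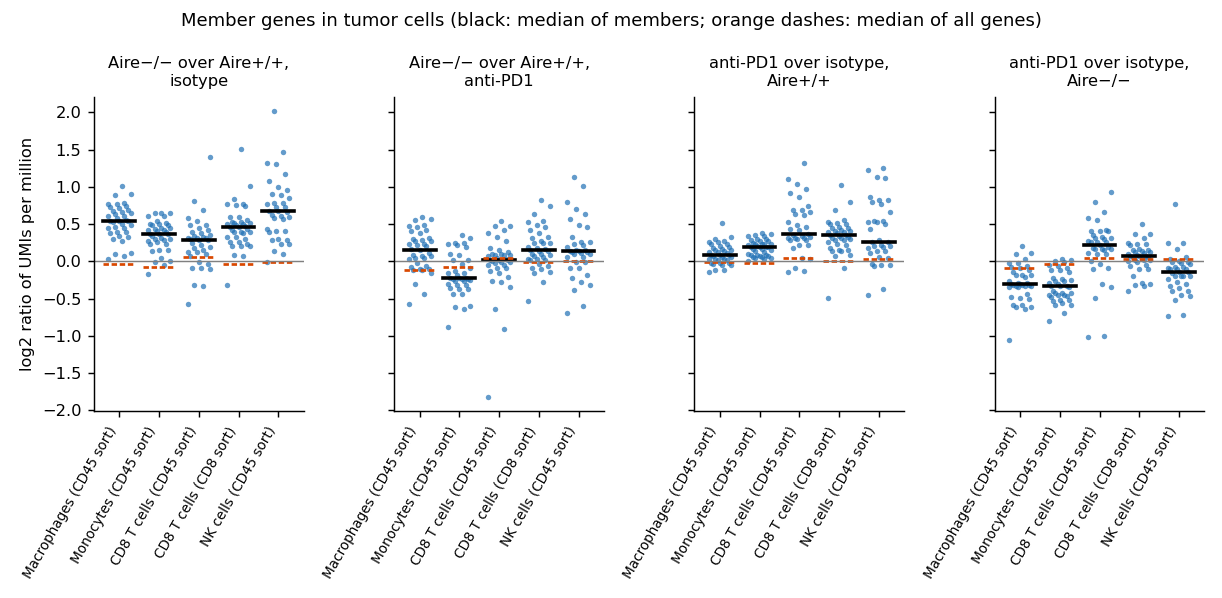
Log2 ratios of the members (points), their median (black line) and the median of all genes (orange dashes) in 5 tumor cell classes for genotype under isotype and anti-PD1 and for treatment in *Aire*+/+ and *Aire*-/-. Medians for genotype under isotype run from 0.29 to 0.67, and those for anti-PD1 in *Aire*-/- from −0.33 in monocytes to 0.22 in CD8+ T cells of the CD45+ sort.

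The spleen libraries show the same comparisons away from the tumor. In CD8+ T cells of the CD8+ sort the member medians were 0.02 for genotype under isotype (37 members, −0.02 under TMM, −0.01 without ribosomal genes and 0.08 in thinned cells, all genes 0.02) and −0.07 under anti-PD1 (36 members, all genes 0.07), which was 0.06 in thinned cells. For anti-PD1 they were −0.07 in *Aire*+/+ (36 members, all genes −0.02) and −0.13 in *Aire*-/- (37 members, all genes 0.04, −0.06 in thinned cells). Genotype under isotype ran from *Usp18*, at 19.9 and 13.9 (−0.52, −0.77 to −0.27) to *Cmpk2*, at 7.58 and 11.3 (0.57, 0.24 to 0.90), and under anti-PD1 from *Slfn5*, at 22.6 and 14.9 (−0.60, −0.84 to −0.37) to *Phf11b*, at 46.9 and 61.1 (0.38, 0.25 to 0.52). For anti-PD1 the ends were *Herc6*, at 27.2 and 20.1 (−0.43, −0.63 to −0.24) and *Dhx58*, at 7.36 and 9.12 (0.31, −0.03 to 0.64) in *Aire*+/+, and *Mx1*, at 6.82 and 3.74 (−0.87, −1.36 to −0.39) and *Dhx58*, at 7.48 and 9.22 (0.30, −0.07 to 0.67) in *Aire*-/-. No role was common to the low ends, which hold a feedback protease, a Schlafen gene, a ligase and an effector. The small CD8+ T cell gate of the spleen CD45+ sort (138 to 186 cells) gave medians of 0.09, −0.33, 0.28 and −0.29 over 26, 28, 28 and 28 members, which over the alternatives ran from −0.09 to 0.37, −0.53 to −0.19, 0.15 to 0.37 and −0.45 to −0.12. Spleen NK cells gave −0.21, 0.49, −0.27 and 0.35 over 12, 10, 12 and 12 members, and these ran from −0.43 to 0.02, 0.10 to 0.49, −0.73 to −0.09 and 0.22 to 0.39, so the first had no settled sign.

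Spleen monocytes had medians of −0.06, −0.33, 0.23 and −0.09 over 37, 35, 37 and 36 members (all genes 0.00, 0.01, 0.01 and 0.01). These values were unsteady: with means of per-cell values the genotype medians were 0.00 under isotype and −0.06 under anti-PD1, and in thinned cells the median for anti-PD1 in *Aire*+/+ was 0.02. The Ifit gene at the top for anti-PD1 in *Aire*+/+ was *Ifit3*, at 34.8 and 77.9 (1.16, 0.62 to 1.72). Spleen B cells, with 1336 to 1699 cells per library, were the most numerous type of the spleen CD45+ sort. Their medians were −0.04, −0.52, 0.23 and −0.08 over 36 members each (all genes 0.01, 0.03, 0.02 and 0.03), and over the alternatives they ran from −0.10 to −0.01, −0.56 to −0.39, 0.17 to 0.25 and −0.16 to −0.08. For genotype under anti-PD1 0 of 36 members were past 1.5-fold higher and 12 lower, where 4.37% of 10177 genes were higher and 3.57% lower. For anti-PD1 in *Aire*+/+ 8 were higher and 0 lower, where 2.78% of 10125 genes were higher and 3.69% lower, and these pairs share the *Aire*+/+ anti-PD1 library. *Ifit3* was at 19.1, 32.1, 10.1 and 9.59 and *Usp18* at 10.3, 15.1, 7.91 and 5.45, highest in that library. The genotype ratios under anti-PD1 were lowest for *Ifit3*, at 32.1 and 9.59 (−1.75, −2.13 to −1.37) and *Usp18*, at 15.1 and 5.45 (−1.47, −2.01 to −0.96), and highest for *Isg20*, at 23.1 and 23.4 (0.02, −0.29 to 0.33), which was −0.02 without ribosomal genes in the total, and *Isg15*, at 33.2 and 32.7 (−0.02, −0.28 to 0.24). Under isotype *Ifit3*, at 19.1 and 10.1 (−0.92, −1.36 to −0.49) was lowest and *Oas1a*, at 11.7 and 15.4 (0.39, −0.04 to 0.82) highest. Anti-PD1 in *Aire*+/+ had *Ifit2*, at 5.17 and 10.6 (1.04, 0.45 to 1.65) at the top and *Isg20*, at 26.0 and 23.1 (−0.17, −0.48 to 0.15) at the bottom, and in *Aire*-/- *Irf7*, at 39.7 and 27.1 (−0.55, −0.81 to −0.29) was lowest and *Cmpk2*, at 12.6 and 14.9 (0.24, −0.16 to 0.66) highest.

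The 9 type I and III ligand genes counted were nearly absent from the gated cells. They were *Ifna1*, *Ifna2*, *Ifna4*, *Ifna5*, *Ifnb1*, *Ifnk*, *Ifne*, *Ifnl2* and *Ifnl3*, and other interferon alpha genes were not counted. Type I interferon is secreted briefly and by few cells, so UMI counts of its transcripts are a weak guide. Tumor macrophages held 38 UMIs of these genes, all of *Ifnb1*, at 0.184, 2.58, 0.890 and 0 CPM. The log2 ratio of anti-PD1 to isotype in *Aire*+/+ was 3.81 (2.11 to 6.17). Tumor monocytes held 18 such UMIs, of which 5 were *Ifnb1*, 7 *Ifna1* and 5 *Ifna4*. CD8+ T cells of the tumor CD8+ sort held 9, of which 8 were *Ifnl2* and 1 *Ifnl3*, both type III, and the other classes 0. *Ifng*, the type II ligand that can raise many members, was plentiful in tumor CD8+ T cells of the CD8+ sort, at 730.5, 541, 727 and 659, with 67370 UMIs against 359 in the same sort of spleen. The receptor gene *Ifnar1* was at 89.0, 113, 109 and 128 in these cells, and *Ifnar2* at 39.3, 38.9, 41.0 and 40.8. By edgeR *Ifnar1* was 0.71 ± 0.07 higher in tumor (adjusted p 3.36e-05, 4 of 4 conditions), while *Ifnar2* was −0.97 ± 0.05 relative to spleen (adjusted p 1.02e-06, higher in 0 of 4). The receptor chains therefore differed between tissues in opposite directions in CD8+ T cells.

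Other genes of the pathway framed the members. Of 17 further type I targets outside the module, such as *Ifit3b*, *Trex1* and *Ube2l6*, 12 were higher in tumor by edgeR and 1, *Sp100*, lower in CD8+ T cells of the CD8+ sort, where 37.7% of all genes were higher and 39.6% lower. Monocytes had 18 of 18 higher, where 27.3% of all genes were higher and 23.0% lower, and NK cells 8 of 14 higher and 2 lower, where 21.8% were higher and 17.3% lower. Targets that lean to interferon gamma, such as *Gbp3*, *Gbp4* and *Cd274*, had 6 of 11 higher and 1, *Irgm2*, lower in CD8+ T cells of the CD8+ sort and 11 of 11 in monocytes. Upstream sensors, including *Mb21d1* (cGAS) and *Tmem173* (STING), had 1 of 6 higher and 1 lower in the CD8+ sort and 5 of 7 higher and 2 lower in monocytes, beside the same shares of all genes. The feedback inhibitor *Socs1* was higher in tumor in both, by 2.01 ± 0.08 (edgeR adjusted p 2.01e-07) and 5.79 ± 0.20 (9.19e-14), in 4 of 4 conditions. Of the 4 inhibitors listed, 3 were higher and 1, *Pias1*, lower in the CD8+ sort. In monocytes 2 were higher and 1, *Ptpn6*, lower, beside the same shares of all genes.

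Genotype ratios in these lists did not all follow the members. In macrophages the gamma-leaning targets had medians of 0.96 under isotype and 1.28 under anti-PD1, against 0.55 and 0.16 for the members. In monocytes they had 0.72 and 0.81, against 0.36 and −0.23. CD8+ T cells of the CD8+ sort gave 0.53 and 0.58, and NK cells 0.60 and 0.71. With anti-PD1 in *Aire*-/- the gamma-leaning median was 0.33 in macrophages and 0.14 in monocytes, where the members were at −0.30 and −0.33. The further type I targets lay nearer the members, at 0.48, 0.21, 0.14 and −0.17 in macrophages and 0.35, −0.01, 0.15 and −0.22 in monocytes over the 4 comparisons. The members and the gamma-leaning genes thus differed in sign in myeloid cells with anti-PD1 in *Aire*-/-, a contrast that was not tested.

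Some members of a family are neighbors in the genome, and a promoter motif was searched in those with an entry. On chromosome 5 lie *Oasl1* beside *Oasl2* and, apart from them, *Oas1a*, *Oas2* and *Oas3*, on chromosome 19 the 3 Ifit members, and on chromosome 11 the 3 Schlafen members. Promoter sequences (RefSeq annotation on GRCm38.p6, 250 bases before to 50 after the start site) were matched by symbol for 29 of 38 members. The core of the interferon-stimulated response element, GAAA followed by any 2 bases and GAAA on either strand, was in 15 of these 29 (51.7%), against 3.99% of 27025 genes. At least 2 matches were found in 5 members, *Ifit1*, *Ifit3*, *Isg15*, *Oas1a* and *Bst2* (17.2%, against 0.266% of genes). The window given for *Ifit3*, and that of *Slfn5* with 1 match, lies inside the annotated gene, so it may not be the main promoter. No match was found in 14, among them *Slfn1*, *Irf9*, *Isg20* and *Lgals3bp*. *Isg20*, highest relative to spleen in tumor CD8+ T cells of the CD8+ sort, thus lacked a match in this window, and *Isg15* had 3. The promoters of *Isg15* and *Ifit1* are shown because they hold several matches in strongly inducible genes, *Bst2* because it is abundant in every tumor type, *Rsad2* because it had the highest ratio in monocytes between the tissues, and *Slfn1* because it was lower in tumor in CD8+ T cells. Capitals mark the motif, and each sequence reads along the gene's strand.

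*Isg15*, chr4:156200769-156201068, minus strand:
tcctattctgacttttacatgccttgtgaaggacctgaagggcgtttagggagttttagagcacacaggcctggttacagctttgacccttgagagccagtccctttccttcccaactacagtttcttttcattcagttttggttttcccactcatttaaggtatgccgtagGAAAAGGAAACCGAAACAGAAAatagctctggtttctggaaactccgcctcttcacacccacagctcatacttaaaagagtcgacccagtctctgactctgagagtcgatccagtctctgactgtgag

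*Ifit1*, chr19:34640639-34640938, plus strand:
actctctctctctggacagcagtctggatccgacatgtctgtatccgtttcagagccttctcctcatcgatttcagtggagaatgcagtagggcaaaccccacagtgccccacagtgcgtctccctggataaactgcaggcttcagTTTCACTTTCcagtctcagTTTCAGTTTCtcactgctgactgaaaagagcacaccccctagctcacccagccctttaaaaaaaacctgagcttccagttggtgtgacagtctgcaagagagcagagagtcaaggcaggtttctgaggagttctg

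*Bst2*, chr8:71537423-71537722, minus strand:
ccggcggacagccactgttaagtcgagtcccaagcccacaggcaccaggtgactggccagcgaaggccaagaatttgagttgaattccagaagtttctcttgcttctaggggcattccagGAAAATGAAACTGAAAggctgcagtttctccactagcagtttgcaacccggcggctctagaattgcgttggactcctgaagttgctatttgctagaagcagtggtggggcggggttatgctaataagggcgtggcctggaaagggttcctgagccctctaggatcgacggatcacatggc

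*Rsad2*, chr12:26456403-26456702, minus strand:
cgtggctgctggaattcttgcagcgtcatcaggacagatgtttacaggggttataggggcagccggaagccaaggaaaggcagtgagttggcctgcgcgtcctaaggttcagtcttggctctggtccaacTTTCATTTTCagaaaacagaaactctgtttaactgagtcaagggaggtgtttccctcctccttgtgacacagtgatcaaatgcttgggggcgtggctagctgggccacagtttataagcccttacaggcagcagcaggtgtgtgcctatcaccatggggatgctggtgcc

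*Slfn1*, chr11:83116570-83116869, plus strand:
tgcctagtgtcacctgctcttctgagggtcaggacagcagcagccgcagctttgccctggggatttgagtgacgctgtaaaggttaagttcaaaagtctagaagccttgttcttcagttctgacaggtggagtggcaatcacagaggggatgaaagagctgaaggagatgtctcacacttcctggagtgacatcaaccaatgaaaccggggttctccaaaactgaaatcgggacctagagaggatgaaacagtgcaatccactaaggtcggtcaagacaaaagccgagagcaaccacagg

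With 1 pooled library per condition, differences between mice cannot be told apart from differences between genotypes or treatments. The shares of cell states within each gate were not analysed here.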

How the data were processed

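The authors deposited, for each of 16 libraries, a table of UMI counts per gene and cell barcode, with alignment to GRCm38 per the labels. These deposited counts were used as they are, and since the kits described count UMIs at transcript ends no length normalization was applied. The deposited tables held 37609 cells with 36727 different barcodes. Of these, cells with at least 200 genes and at most 20% mitochondrial UMIs were kept, and rows were summed by symbol (25127 rows, 24495 symbols). Mitochondrial genes (37 rows) and vector sequences (27 rows) were left out of the test and of all-gene backgrounds. Cell types were gated on marker UMIs, and limits on other markers, such as *Lyz2* in lymphocytes, were set after the data were seen. Doublets were not called by a tool, cells passing more than 1 gate numbered 2 in each of 2 libraries, and free RNA was not subtracted.

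UMIs of the cells of a type were summed per library and given per 1000000 UMIs (CPM). Ratios between conditions have conditional exact 95% intervals, sums Poisson intervals and shares Clopper-Pearson intervals. Tumor and spleen were compared with edgeR (quasi-likelihood, TMM factors, condition as a term, 8 libraries), with BH adjusted p over all genes tested. The SE of a log2 fold change is its size divided by the square root of F. Ratios and test were also run on simulated data. For the test these had a fixed dispersion, as many changes up as down, and changes only in genes above a count minimum. That run therefore does not check the test for members near 0 UMIs in spleen. Named were, by a fixed rule, the 3 most abundant members of each type, the leading member of each role, and per comparison the highest and lowest ratios among members with at least 100 UMIs. Other genes named were chosen after their values were seen, and members and lists were chosen with earlier results of these data known. Alternatives were stricter and looser gates, thinning to 2000 UMIs, means of per-cell values, no cell filter, leaving out large cells, other count minimums, scaling without ribosomal and mitochondrial UMIs or with TMM, RLE, DESeq2, no condition term, and leaving out each condition. In the 40 sets of ratios between conditions, scaling moved the median of all genes by −0.07 to 0.07 (TMM) and −0.08 to 0.03 (without ribosomal and mitochondrial UMIs). These shifts do not cover the test of tumor against spleen. Its TMM factors set the bulk of genes near 0, and its fold changes can differ from ratios of the CPM given. Versions were Python 3.11.15, numpy 2.4.6, scipy 1.17.1, pandas 2.3.3, matplotlib 3.10.9, R 4.3.3, edgeR 4.0.16 and DESeq2 1.42.0.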

Additional observations from a re-analysis of the deposited data

Results flagged for a closer look

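In 10 groups of 4 libraries each, the sum of the 38 members was looked at for a library far from the others, and by chance alone 1 such group among 10 would not be unusual. The *Aire*+/+ isotype library of tumor CD8+ T cells (CD8+ sort) had a sum of 4748 CPM, against 6017, 6053 and 6028 in the others, and its gap to the nearest was 0.972 of the whole range, past the 95% limit of Dixon for groups of 4. That limit is made for samples of 1 population, whereas these are 4 conditions with 1 library each, so it does not show that the library is aberrant. In the CD45+ sort the gap was 0.476, under the limit. Without the 3 most abundant members the sums in the CD8+ sort were 2328, 2960, 3187 and 3439, and the library stood less far apart.

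Medians of the members had opposite signs in tumor and spleen in 5 of 8 treatment comparisons and 4 of 8 genotype comparisons. Each of these 4 genotype comparisons had a median that changed sign over the alternatives. Under anti-PD1 these ran from −0.145 to 0.058 in the spleen CD8+ sort and −0.009 to 0.200 in tumor CD8+ T cells of the CD45+ sort. Under isotype they ran from −0.433 to 0.015 in spleen NK cells and −0.171 to 0.004 in spleen monocytes. Picked out by a rule on the spread of the members, which are not replicates of a condition, were 3 treatment comparisons of CD8+ T cells. For anti-PD1 in *Aire*+/+ (CD8+ sort) the medians were 0.35 in tumor (all genes 0.0090) and −0.073 in spleen (all genes −0.022), the latter −0.041 without ribosomal and mitochondrial UMIs. For anti-PD1 in *Aire*-/- they were 0.069 in tumor (all genes 0.032), which was 0.041 under TMM scaling, and −0.13 in spleen (all genes 0.043) in the CD8+ sort. In the CD45+ sort they were 0.22 (all genes 0.041) and −0.29 (all genes 0.030). NK medians were 0.26 in tumor and −0.27 in spleen for anti-PD1 in *Aire*+/+ and, the other way, −0.14 and 0.35 in *Aire*-/-. With 1 library per condition the difference between the tissues was not tested.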

How the results depend on the processing

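Tumor and spleen were paired by condition in the test. Between genotypes and treatments, no paired analysis was run, and each condition was a pool of its own mice with 1 library per tissue and sort. Of 394 member medians under an alternative 24 moved beyond their limit and 4 reversed, of 1439 named-gene ratios 84 moved and 7 reversed, of 788 counts past a fold 164 moved, and of 80 tissue counts 9 moved. Other medians near 0 also changed sign without being counted as reversed, so 4 is not the number of sign changes. For example, the median of the spleen CD8+ sort for genotype under anti-PD1 went from −0.069 to 0.058 in thinned cells. Of 308 named tissue results 14 lost and 3 gained a call. Of 120 shares of rich cells 70 moved, all with the limit at 10 or 40 UMIs. The values that follow are log2, and the cause was not tested for any.

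With cells thinned to 2000 UMIs, the tumor CD8+ T cell medians of the CD45+ sort were 0.20 for genotype under anti-PD1 and 0.33 for anti-PD1 in *Aire*-/-, and in that class *Ifih1* was −0.052 for genotype under isotype and *Usp18* 0.071 for anti-PD1 in *Aire*-/-. NK medians became 0.33 and −0.031 for genotype under isotype and anti-PD1 and 0.15 and −0.055 for anti-PD1 in *Aire*+/+ and *Aire*-/-, and NK *Irf9* became −0.050 for anti-PD1 in *Aire*+/+. Macrophage medians became −0.0076 for genotype under anti-PD1 and −0.37 for anti-PD1 in *Aire*-/-, and macrophage *Rsad2* 0.11 for anti-PD1 in *Aire*+/+. In spleen the CD8+ sort gave 0.083 and 0.058 for genotype under isotype and anti-PD1, with *Oas1a* at 0.22 under isotype, the CD45+ sort CD8+ T cells 0.37 for genotype under isotype and −0.45 for anti-PD1 in *Aire*-/-, and monocytes 0.015 for anti-PD1 in *Aire*+/+, with *Parp14* at −0.086 for genotype under anti-PD1. NK members called higher in tumor numbered 19.

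With means of per-cell values, tumor CD8+ T cells of the CD45+ sort gave 0.19 for genotype under anti-PD1 and 0.30 for anti-PD1 in *Aire*+/+, NK cells 0.35 and −0.059 for genotype under isotype and anti-PD1, macrophages −0.36 for anti-PD1 in *Aire*-/-, and spleen monocytes 0.0037 and −0.059 for genotype. With a looser gate, tumor CD8+ T cells of the CD45+ sort gave 0.11 for genotype under anti-PD1 and 0.084 and 0.056 for anti-PD1 in *Aire*+/+ and *Aire*-/-, and NK cells −0.30 for anti-PD1 in *Aire*-/-, with *Ifi27l2a* at −0.15 for anti-PD1 in *Aire*+/+. Without cells above 3 times the median UMIs, tumor CD8+ T cells of the CD45+ sort gave 0.36 for genotype under isotype and 0.12 for anti-PD1 in *Aire*-/-, and NK cells −0.070 for genotype under anti-PD1 and −0.23 for anti-PD1 in *Aire*-/-. The count of members lower in tumor in CD8+ T cells of the CD45+ sort, 1 with edgeR, was 0 with DESeq2, RLE factors, no filter beyond 1 UMI, no condition term or thinned cells, and 0 to 1 leaving out each condition.

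Cell numbers were small in spleen NK cells (47 to 79 per library) and spleen monocytes (63 to 168).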

Other observations

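Cell types outside the 5 gates also carried the module, in small numbers of cells. Regulatory T cells restrain other T cells, and in the tumor CD45+ sort (126, 80, 35 and 71 cells) the members summed to 16503, 14696, 18411 and 14756 CPM, against 3675 to 4323 in spleen. Most of this came from *Ifi27l2a*, at 9555, 9108, 10458 and 9139. CD4 T cells without *Foxp3* held 14850.5, 16734, 8183 and 11231 in tumor (20 to 35 cells) and 2251 to 3082 in spleen. Both CD4 types thus stood above tumor CD8+ T cells of the same sort.

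Plasmacytoid dendritic cells, the professional makers of interferon alpha, entered the tumor CD8+ sort in 3 libraries (114, 42 and 28 cells), while the *Aire*-/- anti-PD1 library had too few for a value. Their members summed to 10729, 11292 and 13107, with *Bst2*, a marker of this type in mice, at 4273, 4492 and 4496. Mature dendritic cells of the tumor CD45+ sort held 6987, 4806, 8051 and 7501, with *Isg15* at 1965, 1625, 2989.6 and 2440.2. Neutrophils of the *Aire*+/+ isotype libraries held 18480.3 in tumor (20 cells) and 3353 in spleen (21 cells).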
